A study of Saccharomyces cerevisiae with 9 samples.

Results

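AQY1, AQY2 and FPS1 are the budding yeast genes for the water channels Aqy1 and Aqy2 and for the glycerol channel Fps1, and their transcripts were followed in LOS1 deletion cells and the parent strain. The 3 genes were taken from the 5449 S. cerevisiae genes measured, by the gene names in the array's annotation. Each gene had 1 probe set, so 3 probe sets were annotated to them, and 0 of these were of the kinds that can hybridise to near-identical transcripts. The 3 genes were chosen by a proposal made with the differences between deletion and wild type on these same arrays in view, so these measured differences are given as a description, with no test.

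Los1 exports tRNA from the nucleus, and the study looked for factors that could link its loss to lifespan when nutrients are plentiful. The wild type was the haploid strain BY4742 (6 arrays, cultures 1 to 6), an alpha strain that lacks URA3, LEU2 and LYS2 and part of HIS3. The other group was BY4742 with LOS1 deleted (3 arrays, cultures 7 to 9), and the titles of these arrays also name URA3. All cultures grew in rich glucose medium at 30 °C to an optical density of 0.5 and were lysed in a buffer with cycloheximide. Each strain was represented by 3 isolates, with duplicate cultures for wild type, but arrays from a common isolate are not marked in the labels. P-values therefore rest on the spread between cultures counted as independent, part of which lies within isolates. They may be too small for this reason.

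Aquaporins are membrane channels that let water pass along an osmotic gradient, and aquaglyceroporins also pass small solutes such as glycerol. In yeast, AQY1 is best known from spore formation and AQY2 from growing cells, and both have been tied to freeze tolerance. In S288C, the strain from which BY4742 derives, AQY2 is interrupted by a frameshift, the rest of its ancestral reading frame is annotated as the separate gene YLL053C, and Aqy1 carries substitutions that inactivate it. Fps1 releases glycerol: under hyperosmotic stress the Hog1 kinase pathway closes the channel and raises glycerol synthesis, and when the medium becomes dilute the channel opens. Fps1 is also an entry route for acetic acid, arsenite and antimonite.

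Values are log2 expression values, on which a difference of 1 is a 2-fold change, and are given as mean ± SD. The targeted gene bore out the labels. LOS1 lay between 10.89 and 11.34 in the 6 wild-type cultures and at 3.65, 2.76 and 3.18 in deletion cultures 7, 8 and 9, where it was under the background level of 4.67 set by fission yeast probe sets. It was at least 84.1-fold lower in the deletion (limma adjusted p = 4.79e-10). URA3 showed the reverse, under background in the 6 wild-type cultures and averaging 10.88 ± 0.04 over the 3 deletion cultures. This was a rise of at least 72.8-fold (limma adjusted p = 2.06e-11), so the effects of LOS1 and URA3 cannot be told apart here. LEU2 and LYS2 averaged under the background level in both groups, and HIS3 gave a signal in both, at 11.48 ± 0.12 in wild type (n = 6) and 12.17 ± 0.07 in the deletion (n = 3). HIS3 was thus 0.69 higher in the deletion, and its groups did not overlap, as for 5.19% of all genes with the deletion higher. The cause of this difference was not tested. The 4 markers of alpha cells lay above background on every array, with a summed log2 level of 15.00 to 15.20 in wild type and 14.93 to 15.10 in the deletion. The 6 markers of a cells were also above background, with sums of 9.40 to 9.57 and 9.51 to 9.64. Of both types together, 0 markers passed the limma test, against 5.52% of all genes, and 3 had an unadjusted p under 0.05, against 22%. Wild-type arrays correlated with each other at 0.994 to 0.998, deletion arrays at 0.997, and arrays of different groups at 0.986 to 0.993.

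AQY1 (YPR192W) was lower in every deletion culture than in any wild-type culture. Its lowest, median and highest wild-type values were 6.71, 6.74 and 6.92, and its values in deletion cultures 7, 8 and 9 were 6.33, 6.25 and 6.42. The highest deletion value and the lowest wild-type value were 0.29 apart, more than the range of either group (0.21 and 0.17). The means were 6.79 ± 0.09 in wild type (n = 6) and 6.33 ± 0.09 in the deletion (n = 3), a difference of -0.46, which is 27.3% lower on the linear scale. AQY1 was above background on all 9 arrays but was the dimmest of the 3 genes. RMA values near background can be compressed, which would make a difference look smaller. Whether this touched AQY1 was not tested. In RNA from whole cultures, fewer cells that transcribe a gene and less RNA per cell cannot be told apart.

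AQY2 (YLL052C) showed the largest difference of the 3 genes, in the same direction. In wild type its lowest, median and highest values were 8.07, 8.18 and 8.48, and in deletion cultures 7, 8 and 9 it lay at 7.70, 7.43 and 7.62. The groups did not overlap, and the gap between them was 0.38, against ranges of 0.41 within wild type and 0.27 within the deletion. The means were 8.23 ± 0.15 (n = 6) and 7.58 ± 0.14 (n = 3), a difference of -0.65, or 36.1% lower. AQY2 also varied more among wild-type cultures than most genes: its SD ranked at percentile 85.2 of all 5449 genes, whose median was 0.09, while AQY1 ranked at percentile 52.2 and FPS1 at percentile 40.5.

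YLL053C, the annotated remainder of the ancestral AQY2 frame, has a probe set of its own and gave a separate reading of the same locus. Its lowest, median and highest wild-type values were 9.87, 9.90 and 10.18, and its values in deletion cultures 7, 8 and 9 were 9.44, 9.34 and 9.49. Every deletion culture lay under every wild-type culture. The wild-type mean was 9.95 ± 0.12 (n = 6) and the deletion mean 9.42 ± 0.08 (n = 3), so YLL053C fell, with a difference of -0.52 ± 0.07 (± SE, limma adjusted p = 0.00184) and limma adjusted p of 0.000477 to 0.015 over 15 alternative fits. Because it neighbours AQY2 and belongs to the same ancestral gene, it is not evidence independent of AQY2. AQY1 and AQY2 are also close relatives in sequence, and cross-hybridisation between their probe sets was not tested.

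FPS1 (YLL043W) overlapped between the groups. Its lowest, median and highest wild-type values were 11.16, 11.25 and 11.38, and deletion cultures 7, 8 and 9 lay at 11.25, 11.16 and 11.29. The means were 11.25 ± 0.08 (n = 6) and 11.23 ± 0.07 (n = 3), a difference of -0.02 that is smaller than the SD of either group. Its sign turned to 0.01 without wild-type culture 1, to 0.02 without deletion culture 8, and to 0.00065 after median centring of each array.

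**Figure D1:**
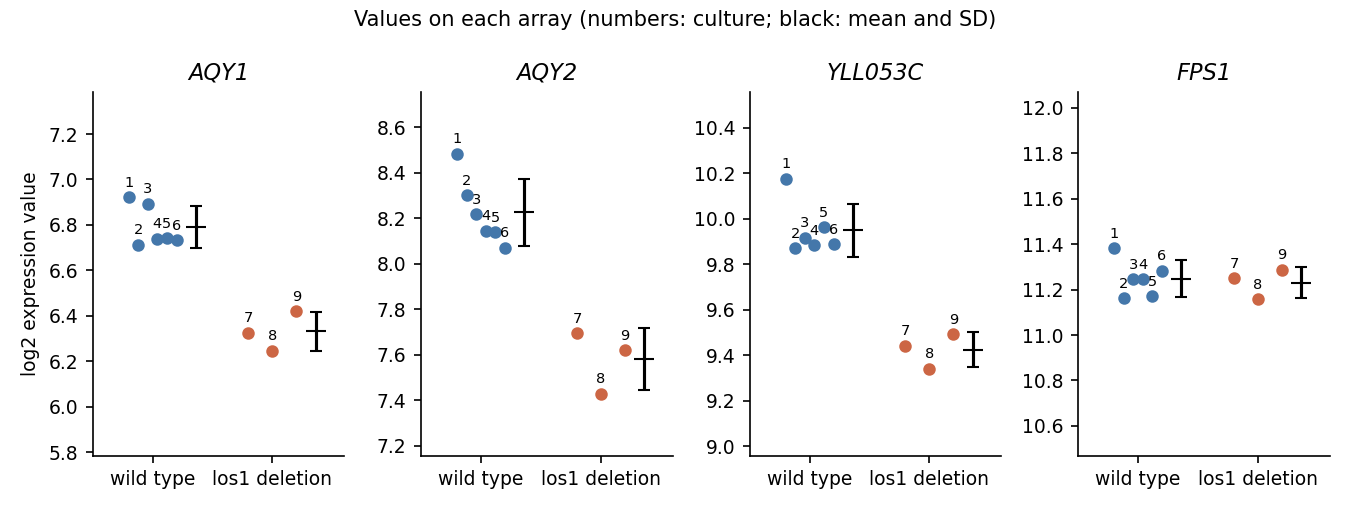
Log2 expression values of AQY1, AQY2, YLL053C and FPS1 on each array (points, numbered by culture), with the mean and SD of the 6 wild-type and 3 deletion arrays in black; each panel spans the same number of log2 units. The deletion arrays of AQY1 (6.25 to 6.42), AQY2 (7.43 to 7.70) and YLL053C (9.34 to 9.49) lie under all wild-type arrays, while those of FPS1 (11.16 to 11.29) overlap with them.

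The 4 probe sets had the same highest wild-type culture and the same lowest deletion culture, but differed in order in the others. Wild-type culture 1 was the highest wild-type culture for each of them, by 0.13 above the wild-type mean for AQY1 and FPS1, 0.26 for AQY2 and 0.23 for YLL053C, whereas 20.4% of all genes had their wild-type maximum there. Deletion culture 8 was the lowest deletion culture for each of the 4, which was true of 41.0% of all genes. In culture 8 AQY2 lay at -0.80, YLL053C at -0.61, AQY1 at -0.54 and FPS1 at -0.09 relative to their own wild-type means. In culture 3 AQY1 lay at 0.10 and AQY2 at -0.01, in culture 2 AQY2 lay at 0.07 and AQY1 at -0.08, and in culture 6 FPS1 lay at 0.03 and AQY2 at -0.16. Without wild-type culture 1 the differences were -0.43 for AQY1 and -0.59 for AQY2, and without deletion culture 8 they were -0.42 and -0.57.

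**Figure D2:**
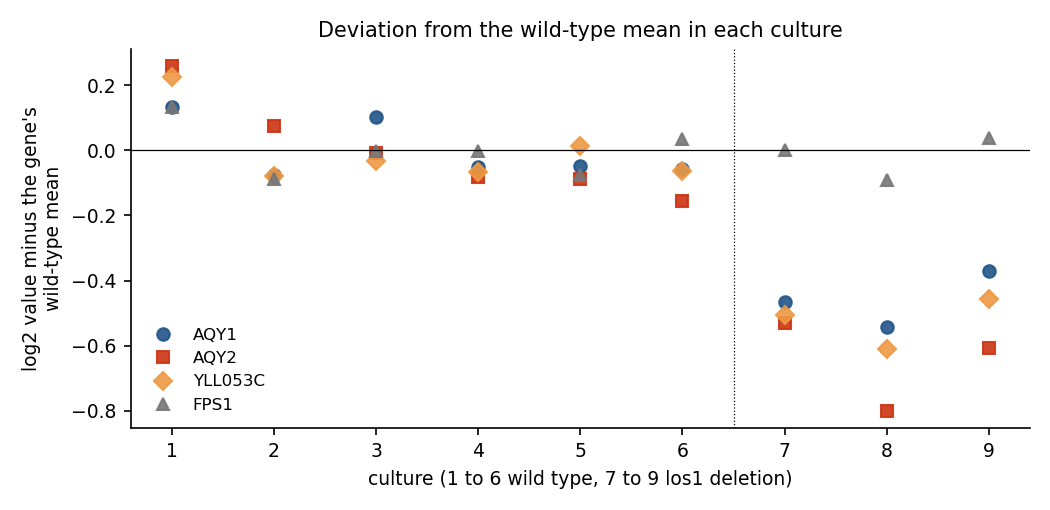
Log2 value of each probe set minus that gene's own wild-type mean (y axis) in cultures 1 to 6 (wild type) and 7 to 9 (LOS1 deletion). In the deletion cultures AQY1 lies at -0.37 to -0.54, AQY2 at -0.53 to -0.80 and YLL053C at -0.46 to -0.61, and FPS1 stays between -0.09 and 0.04.

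Set among all 5449 genes ordered from the largest fall, AQY2 stood at place 43, YLL053C at 66, AQY1 at 88 and FPS1 at 2625. The median difference of all genes was -0.01. The groups did not overlap for 685 genes (12.6% of those tested), with the deletion higher for 283 (5.19%) and lower for 402 (7.38%). AQY1 and AQY2 were among the 402. Since the genes were chosen with this contrast known, nothing is read from that count.

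**Figure D3:**
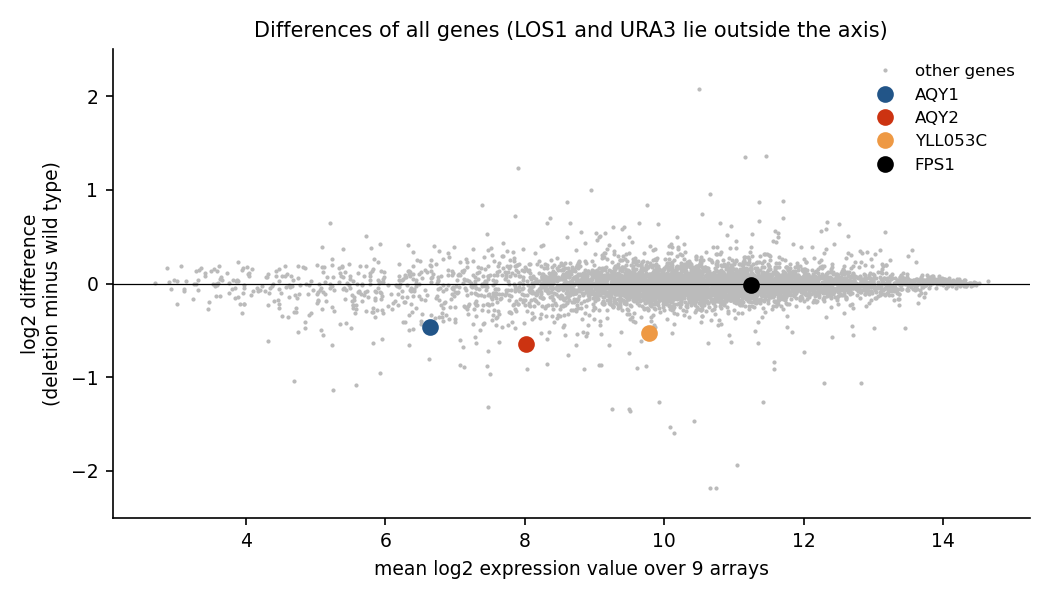
Log2 difference between deletion and wild type (y axis) against the mean log2 value over 9 arrays (x axis) for the genes within the y axis in grey, with the aquaporin loci and FPS1 in colour. LOS1 and URA3 lie outside the axis. AQY2 (-0.65), YLL053C (-0.52) and AQY1 (-0.46) lie in the lower edge of the cloud, and FPS1 (-0.02) lies in its middle.

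Other genes of water and glycerol handling and of the programmes tied to these channels were read from the same limma fit. In that fit 301 of 5449 genes passed (5.52%), 143 higher (2.62%) and 158 lower (2.9%) in the deletion. After repeated quantile normalization 175 were higher and 126 lower. Dropping 1 array changed the total, to as few as 126 genes when deletion culture 8 was dropped and as many as 478 when wild-type culture 5 was. At an unadjusted p under 0.05 there were 1199 (22.0%). The groups did not overlap in 155 of the 158 genes that fell, so a lack of overlap adds little to such a call. Of 137 distinct measured genes in 11 lists, 9 passed (6.57%), a total near the share among all genes, with 1 higher (0.73%) and 8 lower (5.84%). Whether this split differs from that of all genes was not tested. The 8 lower genes include YLL053C, which is not independent of AQY2, a gene chosen with this contrast in view. The lists were chosen with earlier results of these data known. The share given for each list beside that of all genes is therefore a description and is not read as enrichment. Leaving out deletion culture 8 brought the count to 5, and leaving out wild-type culture 5 brought it to 14. The aquaporin relatives were the list that held YLL053C, and AQY3, the gene of another channel of the family, was not analysed here.

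The proteins that set whether Fps1 is open did not pass at the transcript level. Of 8 measured genes, 0 rose and 0 fell in the limma fit, against 5.52% called among all genes. At an unadjusted p under 0.05 there were 2, against 22% of all genes, and the median difference of the list was -0.06. The smallest adjusted p belonged to ASK10, which with RGC1 encodes the regulators that hold Fps1 open, with a difference of -0.21 ± 0.07 (± SE, limma adjusted p = 0.125). RGC1 differed by -0.06 (limma adjusted p = 0.694), HOG1, the kinase that closes the channel, by -0.05 (0.531), and YPK1, a kinase that keeps it open, by -0.05 (0.651). SLT2, the kinase of the cell wall integrity pathway, differed by -0.06 (0.71). The TORC2 partners SLM1 and SLM2 differed by -0.13 and 0.20, and YPK2 by -0.32 (0.315, 0.198 and 0.267).

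Among the glycerol synthesis genes 1 of 4 fell and 0 rose in the limma fit, where 2.9% of all genes fell and 2.62% rose, with a median difference of -0.12. GPP2, a phosphatase of the last step that osmotic stress induces, had a lowest, median and highest wild-type value of 11.80, 11.92 and 12.03 and lay at 11.56, 11.58 and 11.22 in cultures 7, 8 and 9. The groups did not overlap, and GPP2 fell by 0.47 on the log2 scale (limma adjusted p = 0.0097), a call that held in all 15 alternative fits. Its relative GPP1 differed by 0.01 (0.894). GPD1 and GPD2, the dehydrogenases of the preceding step, differed by -0.15 and -0.09 (limma adjusted p = 0.27 and 0.396).

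Among the genes of glycerol uptake and breakdown 2 of 9 fell (22.2%, against 2.9% of all genes) and 0 rose, with a median difference of -0.10. DAK2, a dihydroxyacetone kinase, lay between 5.81 and 5.98 in wild type, with a median of 5.95, and at 5.63, 5.61 and 5.73 in cultures 7, 8 and 9, a difference of -0.26 (limma adjusted p = 0.0264). DAK2 was dim, though above the background level of 4.67 on all 9 arrays. GCY1, a glycerol dehydrogenase, lay between 9.77 and 9.92 in wild type, with a median of 9.84, and at 9.61, 9.68 and 9.64 in the deletion, a difference of -0.20 (limma adjusted p = 0.0292). Neither gene overlapped between the groups, but both calls were lost when single cultures were left out. Both were lost without cultures 1, 2, 4, 7 or 8, and GCY1 also without culture 9, with limma adjusted p of up to 0.142 for DAK2 and 0.111 for GCY1. DAK2 was also lost after repeated quantile normalization and with an intensity trend and robust prior.

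The other 7 genes of that list did not pass. GUT2, the mitochondrial glycerol 3-phosphate dehydrogenase, had the largest difference among them at -0.44, but its wild-type values ran from 9.51 to 10.44 and overlapped with the deletion values of 9.64, 9.55 and 9.47 (limma adjusted p = 0.192). GUT1, the glycerol kinase, differed by -0.10 (0.247). STL1, the glycerol importer of the plasma membrane, was dim at 5.65 ± 0.15 in wild type (n = 6) and 5.56 ± 0.18 in the deletion (n = 3), a difference of -0.09 (limma adjusted p = 0.639). GUP1 and GUP2 differed by -0.16 and 0.17, and YPR1 and DAK1 by -0.03 and -0.002 (limma adjusted p of 0.247, 0.306, 0.777 and 0.989).

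The HOG pathway, which senses high osmolarity, had 0 of 26 genes past the limma threshold, against 5.52% of all genes. It had 4 at an unadjusted p under 0.05, against 22% of all genes. Its median difference was -0.05. Its smallest adjusted p were those of SSK1, the response regulator of the Sln1 branch, with -0.27 (limma adjusted p = 0.0718), and MSN4, a stress transcription factor, with -0.53 (0.134). MSN4 ranged from 8.06 to 8.93 in wild type and lay at 8.15, 7.81 and 7.67 in the deletion.

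Of 16 measured genes that osmotic stress induces, 4 fell (25%, against 2.9% of all genes) and 0 rose, with a median difference of -0.12. An unadjusted p under 0.05 was seen for 7 of the 16, against 22% of all genes. As the list was chosen with earlier results of these data known, these shares are a description only. Of the 4 genes that fell, GPP2 is described above. The others were CWP1, a cell wall mannoprotein, RTC3, a stress-induced protein, and ALD3, a cytosolic aldehyde dehydrogenase. CWP1 lay between 11.48 and 12.24 in wild type, with a median of 11.86, and at 11.17, 11.08 and 10.79 in cultures 7, 8 and 9, a difference of -0.84 (limma adjusted p = 0.0217). RTC3 lay between 8.23 and 8.65, with a median of 8.62, and at 7.90, 7.77 and 8.11, a difference of -0.59 (limma adjusted p = 0.00976). ALD3 lay between 7.58 and 7.78, with a median of 7.64, and at 7.21, 7.46 and 7.29, a difference of -0.33 (limma adjusted p = 0.0132). The groups overlapped in 0 of these 3 genes, but this was also true of 155 of the 158 genes that fell in the whole fit. Each call depended on the arrays. CWP1 was lost without culture 8 or 9, RTC3 without culture 8 and ALD3 without culture 7 or 9 and after repeated quantile normalization, with limma adjusted p of up to 0.106, 0.0597 and 0.0725. HSP12, a membrane-associated stress protein, differed by -0.91 but missed the threshold (limma adjusted p = 0.0901), with wild-type values from 8.74 to 9.80 and deletion values of 8.81, 8.04 and 7.87. CTT1, the cytosolic catalase, differed by -0.05 (0.576).

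**Figure D4:**
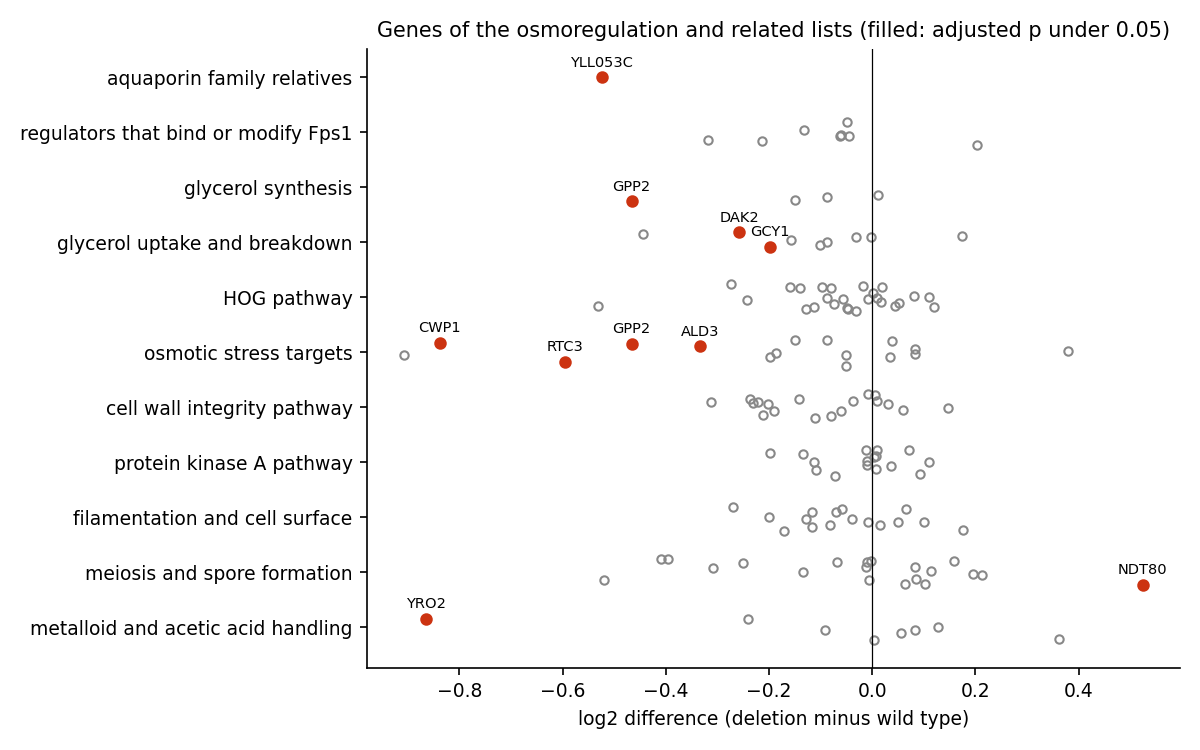
Log2 difference between deletion and wild type (x axis) for each measured gene of 11 lists (rows), with genes at a limma adjusted p under 0.05 filled and named; vertical scatter within a row has no meaning. Of 137 distinct genes, 8 filled ones lie left of 0 and NDT80 (0.52) lies right of it.

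AQY1 is known from spore formation, and of 20 measured genes of meiosis and spore formation 1 rose and 0 fell, a share called (5%) near that of all genes (5.52%), with a median difference of -0.004. More of the list, 8 of the 20 genes, had an unadjusted p under 0.05, against 22% of all genes. Those 8 differed in both directions, and they include IME4, which was under background on every array. SPR28, SPS2 and DIT2 were also under background on every array. NDT80, the transcription factor of mid-meiosis, lay between 7.03 and 7.47 in wild type, with a median of 7.28, and at 7.79, 7.77 and 7.86 in cultures 7, 8 and 9, so the groups did not overlap. It rose by 0.52 on the log2 scale (limma adjusted p = 0.0036), and the call held in all 15 alternative fits. HOP1 and SPO11, genes of meiotic chromosomes and recombination, differed by -0.40 and -0.31 and did not pass (limma adjusted p = 0.0506 and 0.0626). IME1 and IME2, which start meiosis, differed by 0.19 and -0.52 (limma adjusted p = 0.106 and 0.0932).

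Pathways that regulate growth and the cell surface, where AQY2 has been studied, had 0 calls among 16 genes of the protein kinase A pathway, 0 among 16 genes of filamentation and the cell surface and 0 among 18 genes of cell wall integrity in the limma fit, where 5.52% of all genes were called. At an unadjusted p under 0.05 there were 2, 2 and 4, against 22% of all genes. Their median differences were -0.003, -0.06 and -0.10. The smallest adjusted p were those of CYR1, the adenylate cyclase, with -0.14 (limma adjusted p = 0.184), FLO9, a flocculin measured by a probe set of a kind that can pick up near-identical transcripts, with -0.27 (0.0943), and ROM1, an activator of Rho1, with -0.31 (0.0959).

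Of 8 genes for handling metalloids and acetic acid, which enter through Fps1, 1 fell (12.5%, against 2.9% of all genes) and 0 rose, with a median difference of 0.03. YRO2, a membrane protein, lay between 9.12 and 9.62 in wild type, with a median of 9.37, and at 8.53, 8.53 and 8.42 in cultures 7, 8 and 9. The groups did not overlap, and it fell by 0.86 on the log2 scale (limma adjusted p = 0.000459), in all 15 alternative fits as well. HAA1, the transcription factor of the acetic acid response, and ARR3, the arsenite exporter, differed by 0.003 and 0.08 (limma adjusted p = 0.984 and 0.752).

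Besides YLL053C, 0 genes next to these loci passed the limma test, where 5.52% of all genes were called. An unadjusted p under 0.05 was seen for 2, against 22% of all genes. With so few neighbours, nothing is read from these counts. Of the 18 nearest genes, 3 on each side of AQY1, AQY2 and FPS1 in the RefSeq table for assembly R64, 17 were measured, and YLL053C was the 1 that fell. On the other side of AQY2, FRE6, a ferric reductase of the vacuole, differed by -0.12 (limma adjusted p = 0.527), and YLL054C, beyond YLL053C, by 0.04 (0.748). Beside AQY1, QCR2, a subunit of respiratory complex III, differed by -0.06 (0.755) and HPA2, an acetyltransferase, by -0.13 (0.186). OPT2, an oligopeptide transporter next to HPA2, differed by -0.49, but its deletion values of 6.74, 5.94 and 6.08 overlapped with its wild-type range of 6.38 to 7.14 (limma adjusted p = 0.188). Beside FPS1, RPL8B, a ribosomal protein gene, differed by -0.01 (0.869) and ATG10, an autophagy gene, by -0.20 (0.367). RNP1, next to RPL8B, was under background on every array, so a change in it could not be seen.

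**Figure D5:**
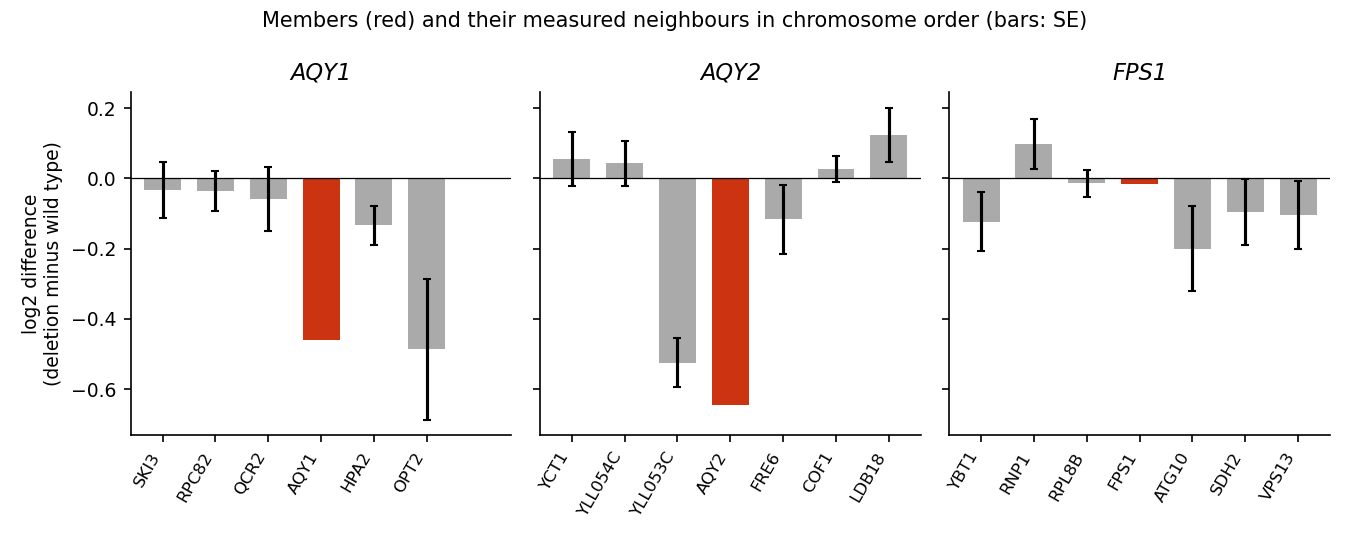
Log2 difference between deletion and wild type (y axis) for AQY1, AQY2 and FPS1 (red) and the measured genes on either side in chromosome order (grey, with SE). YLL053C (-0.52 ± 0.07) is the neighbour past the limma threshold, and OPT2 (-0.49 ± 0.20) has a wide error.

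The likeness of profiles was measured as the root mean square difference over the 9 arrays, in log2 units, after each gene was centred on its own mean. Both groups enter this distance, so it includes the difference between deletion and wild type that was in view when the genes were chosen. The 5 genes nearest to AQY1 differed by -0.54 to -0.37, and the 5 nearest to AQY2 by -0.68 to -0.52. Nearness is therefore a description, and shared regulation was not tested. Among 5448 other genes the one nearest to AQY1 was YLL053C, at 0.07, and the one nearest to YLL053C was AQY1. For AQY1 the next were ECM3, THI7, URA4 and ATG40, at 0.08, and 10 genes in all lay within 0.1, against a median distance of 0.24. For AQY2 the nearest was MSH5, at 0.09, followed by YLL053C at 0.10, AMS1 at 0.10, EDS1 at 0.12 and MIP6 at 0.13, and 2 genes lay within 0.1. AQY1 and AQY2 were 0.13 apart, with AQY1 at place 7 among the genes nearest to AQY2 and AQY2 at place 72 among those nearest to AQY1. For FPS1 the nearest were HTZ1, PIN2, ASK1, BGL2 and MPD1, at 0.02 to 0.03. As 2178 genes (40% of those compared) lay within 0.1 of FPS1, these 5 are examples of a flat profile that many genes had.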

How the data were processed

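The authors deposited 1 log2 value per probe set for each Affymetrix Yeast_2 array. RMA is the tool that the submitters' processing notes name, with no version. RMA corrects background and quantile normalizes the arrays, so a difference is relative to the rest of the array. Of 10928 probe sets, 5498 matched an S. cerevisiae gene of RefSeq assembly R64 by identifier, and the brightest was kept per gene (5449 genes). The background level was the 95th percentile of 1746 other named probe sets, taken as S. pombe; a group under it on every array gave a bound. Scanner signals were not used here, and precision is limited by the number of arrays. Differences were fitted with limma 3.58.1 (lmFit, eBayes, 2-sided) in R 4.3.3, without a block, with Benjamini-Hochberg adjustment over 5449 genes and a threshold of 0.05; every adjusted p printed comes from limma. The script was tested on simulated data.

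The genes studied and the gene lists were chosen with earlier results of these data known. Named genes were the engineered loci, list genes past the threshold, those with the smallest p in other lists, all genes of the lists on Fps1 regulators and glycerol, chromosome neighbours and the 5 nearest profiles. CTT1, HSP12, HAA1, ARR3, HOP1, SPO11, IME1 and IME2 were named outside this rule, after their values were seen. Alternatives were median centring, repeated quantile normalization, leaving out genes under background, averaging or testing all probe sets, a robust prior with an intensity trend (statmod 1.5.0), array weights and leaving out each array.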

Additional observations from a re-analysis of the deposited data

Results flagged for a closer look

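Of 46 genes examined for an array far from the others among the 6 wild-type cultures, 3 had one, and chance alone flags about 1 in 20 groups. YLL053C was high in culture 1, at 10.18, with the other wild-type cultures between 9.87 and 9.96. STL1 was low in culture 5, at 5.37, with the others between 5.66 and 5.81. RPC82, a gene near AQY1 that encodes a subunit of RNA polymerase III, was high in culture 3, at 11.64, with the others between 11.41 and 11.49.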

How the results depend on the processing

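The difference between deletion and wild type lay between -0.50 and -0.42 for AQY1, between -0.70 and -0.57 for AQY2 and between -0.05 and 0.02 for FPS1 over the 9 fits that left out 1 array. Over the other 4 alternatives it lay between -0.46 and -0.39 for AQY1, between -0.65 and -0.58 for AQY2 and between -0.02 and 0.00065 for FPS1. For these 3 genes every one of the 13 alternatives moved the difference by less than the spread between replicates. The count of genes past the limma threshold was 301, and it ranged from 126 to 478 when 1 array was left out: it was 126, 148 and 170 without deletion cultures 8, 9 and 7, 183 without wild-type culture 4 and 478 without wild-type culture 5. It was 498 with array weights. The count of list genes was 9, with 5 to 14 when 1 array was left out and 14 with array weights. The cause of these shifts was not tested. Repeated quantile normalization moved the median difference of all genes by 0.01. No paired analysis was possible because the groups share no replicate numbers and arrays from a common isolate are not marked in the labels.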
